A study of Mus musculus with 22 samples.

Results

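Microglia of aged and middle-aged male mice were compared across the transcriptome. These are the 8 libraries of the series, of 22 in all, that carry the labels male and either 104 or 52 weeks: 3 libraries from aged males (given as 96 to 104 weeks old) and 5 from middle-aged males (50 to 54 weeks old). They were chosen by these labels alone. All mice were untreated C57BL/6J, housed under the label SPF, and each library is total RNA from CD11b-positive, CD45-low, lineage-negative cells sorted from whole brain. The other libraries come from middle-aged females (5), aged females (3), and young adult males and females of 6 to 10 weeks (3 each). Nothing in the labels says whether a library holds 1 animal or a pool. The p-values therefore rest on the spread between libraries within groups, estimated over all 22 libraries. Every cell type statement is bulk: fewer cells of a type and less RNA per cell cannot be told apart.

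Microglia are the resident macrophages of the brain. In the undisturbed brain they express a homeostatic set of genes that includes the purine receptor P2ry12, the surface protein Tmem119 and the transcription factor Sall1. In aged and diseased brain a part of them takes on a disease-associated state, marked by lipid and phagocytic genes such as Apoe, Cst7, Axl and Itgax, while interferon-response genes and antigen presentation on major histocompatibility complex (MHC) molecules mark other states.

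The sequences below are promoter windows of genes from 2 groups in which most of the members rose in aged males, MHC class II presentation and the lysosome. They come from RefSeq for build GRCm38.p6, run from 250 bases before to 50 bases after the annotated start, and are written 5′ to 3′ on the gene's strand. In the class II genes the capitals mark the Y box letters CTGATTGG, a CCAAT-type element known from class II promoters.

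H2-Eb1 (chr17:34305617-34305916, plus strand): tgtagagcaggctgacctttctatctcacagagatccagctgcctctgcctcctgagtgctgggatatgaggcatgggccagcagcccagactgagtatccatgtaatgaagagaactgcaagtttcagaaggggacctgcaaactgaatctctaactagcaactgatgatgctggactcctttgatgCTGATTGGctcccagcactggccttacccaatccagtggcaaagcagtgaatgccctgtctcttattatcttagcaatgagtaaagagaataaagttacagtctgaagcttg
H2-Oa (chr17:34092129-34092428, plus strand): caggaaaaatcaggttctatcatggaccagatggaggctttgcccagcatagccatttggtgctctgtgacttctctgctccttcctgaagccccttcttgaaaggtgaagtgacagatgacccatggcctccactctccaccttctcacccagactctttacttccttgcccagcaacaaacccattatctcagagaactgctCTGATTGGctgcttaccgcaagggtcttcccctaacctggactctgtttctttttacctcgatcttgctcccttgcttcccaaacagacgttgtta
H2-Aa (chr17:34287774-34288073, minus strand): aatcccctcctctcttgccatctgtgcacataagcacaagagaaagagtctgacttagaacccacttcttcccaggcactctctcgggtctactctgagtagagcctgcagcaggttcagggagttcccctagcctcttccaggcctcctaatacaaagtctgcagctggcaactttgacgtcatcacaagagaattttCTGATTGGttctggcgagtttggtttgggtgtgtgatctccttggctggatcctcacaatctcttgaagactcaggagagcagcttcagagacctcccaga

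In the lysosomal genes the capitals mark the palindromic E-box CACGTG, the core that the lysosomal regulator TFEB is known to bind.

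Naglu (chr11:101069844-101070143, plus strand): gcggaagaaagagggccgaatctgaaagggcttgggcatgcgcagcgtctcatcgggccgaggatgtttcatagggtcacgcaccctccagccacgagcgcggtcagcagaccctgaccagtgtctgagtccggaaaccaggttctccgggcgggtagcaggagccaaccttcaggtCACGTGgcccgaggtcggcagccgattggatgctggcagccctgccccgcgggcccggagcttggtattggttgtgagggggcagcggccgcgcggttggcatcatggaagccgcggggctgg
Gaa (chr11:119267713-119268012, plus strand): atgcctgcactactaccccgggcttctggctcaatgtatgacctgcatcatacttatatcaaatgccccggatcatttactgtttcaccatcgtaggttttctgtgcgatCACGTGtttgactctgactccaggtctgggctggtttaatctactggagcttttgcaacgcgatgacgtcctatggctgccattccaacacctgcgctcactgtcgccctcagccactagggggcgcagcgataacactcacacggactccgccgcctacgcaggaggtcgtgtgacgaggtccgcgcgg
Glb1 (chr9:114400828-114401127, plus strand): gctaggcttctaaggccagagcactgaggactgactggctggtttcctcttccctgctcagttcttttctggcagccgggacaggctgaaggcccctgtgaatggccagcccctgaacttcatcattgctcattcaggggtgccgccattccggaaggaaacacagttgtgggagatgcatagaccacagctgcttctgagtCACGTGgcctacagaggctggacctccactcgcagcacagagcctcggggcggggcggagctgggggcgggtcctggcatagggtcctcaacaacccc

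The Y box letters, on either strand, stood in 3 of the 10 windows that matched a tested class II gene (9 of 12 members matched), in 6 of the 15 windows of the MHC class I list, in 13 of the 26 windows of the endoplasmic reticulum chaperone list, and in 5.57% of the 12412 windows of all tested genes. The E-box stood in 16 of the 55 windows of the lysosome list (29.1%, 44 of 55 members matched). Over the windows of all tested genes it stood in 9.91%. It was not particular to the lysosome list, with 30.6% of translation factor, 25% of clock and 20.7% of cholesterol synthesis windows. Other lists lay below all tested genes, such as the receptor list (2.70%). The longer CLEAR element, which holds the E-box at its center, stood in 1 of the 55 lysosome windows (1.82%). Its share over all tested genes was 0.709%. H2-Eb1, H2-Oa, Naglu, Gaa and Glb1 were each called higher in aged males, while H2-Aa had the same letters and was not called. A match describes the letters in the window only.

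Library depth, recovered as whole reads, was 17919286 to 23625213 in the aged males and 24306309 to 34110207 in the middle-aged males, so the aged group was the shallower one. The sorted cells carried the microglial label in all 8 libraries: P2ry12 was at 172482 to 201399 normalized counts in the aged and 170177 to 238086 in the middle-aged males, where a normalized count is reads divided by 1 size factor per library. On the first principal component of all 22 libraries, which held 15.4% of the variance, the aged males lay at -27.0 to -15.0, inside the range of the females of all ages (-54.2 to 1.25), and the middle-aged males lay at 20.8 to 40.9, toward the young males (46.1 to 64.6). The labels give no preparation date or sequencing run, so a batch shared by some groups cannot be told apart from age and sex. Of the genes called higher in aged males, 951 of 968 (98.2%) had an aged male mean nearer to that of middle-aged females than to that of middle-aged males, and of those called lower 928 of 969 (95.8%), against 53.8% of genes not called. The same middle-aged males enter both the call and this count, so it is a description.

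**Figure D1:**
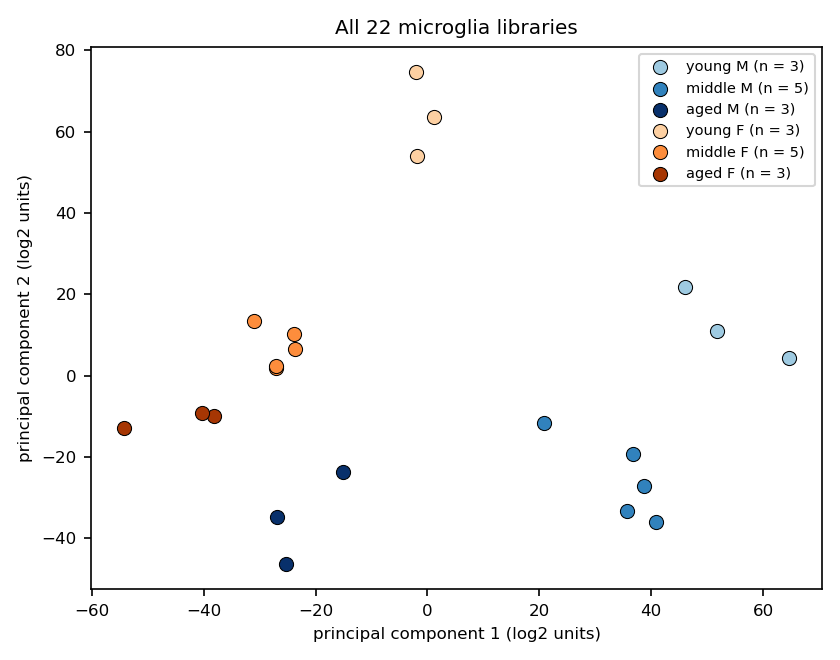
Each point is 1 library on the first and second principal component of log2(normalized count + 1) over 12552 genes, colored by age and sex (M, male; F, female). The 3 aged male libraries lie at -27.0 to -15.0 on the first component, on the side of the females, and the 5 middle-aged males at 20.8 to 40.9.

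Across the transcriptome, 968 of 12552 tested genes were higher in aged than in middle-aged males (7.71%) and 969 were lower (7.72%). The test was limma on log2(normalized count + 1), fitted over all 22 libraries, with a Benjamini-Hochberg adjusted p under 0.05, so all differences below are on that log2 scale, with their SE, and understate changes of genes with few counts. The aged and middle-aged libraries did not overlap for 1129 genes in the higher direction (8.99%) and 1125 in the lower (8.96%). Higher calls were concentrated among abundant genes: 698 of the 3877 genes with a mean of 1000 or more rose and 319 fell, whereas 35 of the 3251 genes with a mean under 100 rose and 151 fell. The median annotated transcript length was 2702 bases for higher, 4031 for lower and 3352 for uncalled genes, and the median GC content was 53.9%, 45.5% and 49.5%. The count fell to 133 higher and 239 lower without aged males 1 and 4, 2 libraries with neutrophil transcripts, which leaves aged male 2 alone with its spread assumed to equal that of the other groups. An arm of 1 library has less power. Some genes, such as C3 (4.34 in that fit, 4.07 with all libraries) and Cst7 (1.15 and 1.16), lost the call at a similar difference. Others, such as Igf1 (2.05 and 3.25) and Gpnmb (2.75 and 4.13), lost it at a smaller one. What lay behind the lower count was not tested. With every library rescaled to the same total the split turned to 440 higher and 1801 lower, and the median over all genes moved from -0.02 to -0.16. With the trend over transcript length and GC content removed it was 1197 higher and 587 lower.

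**Figure D2:**
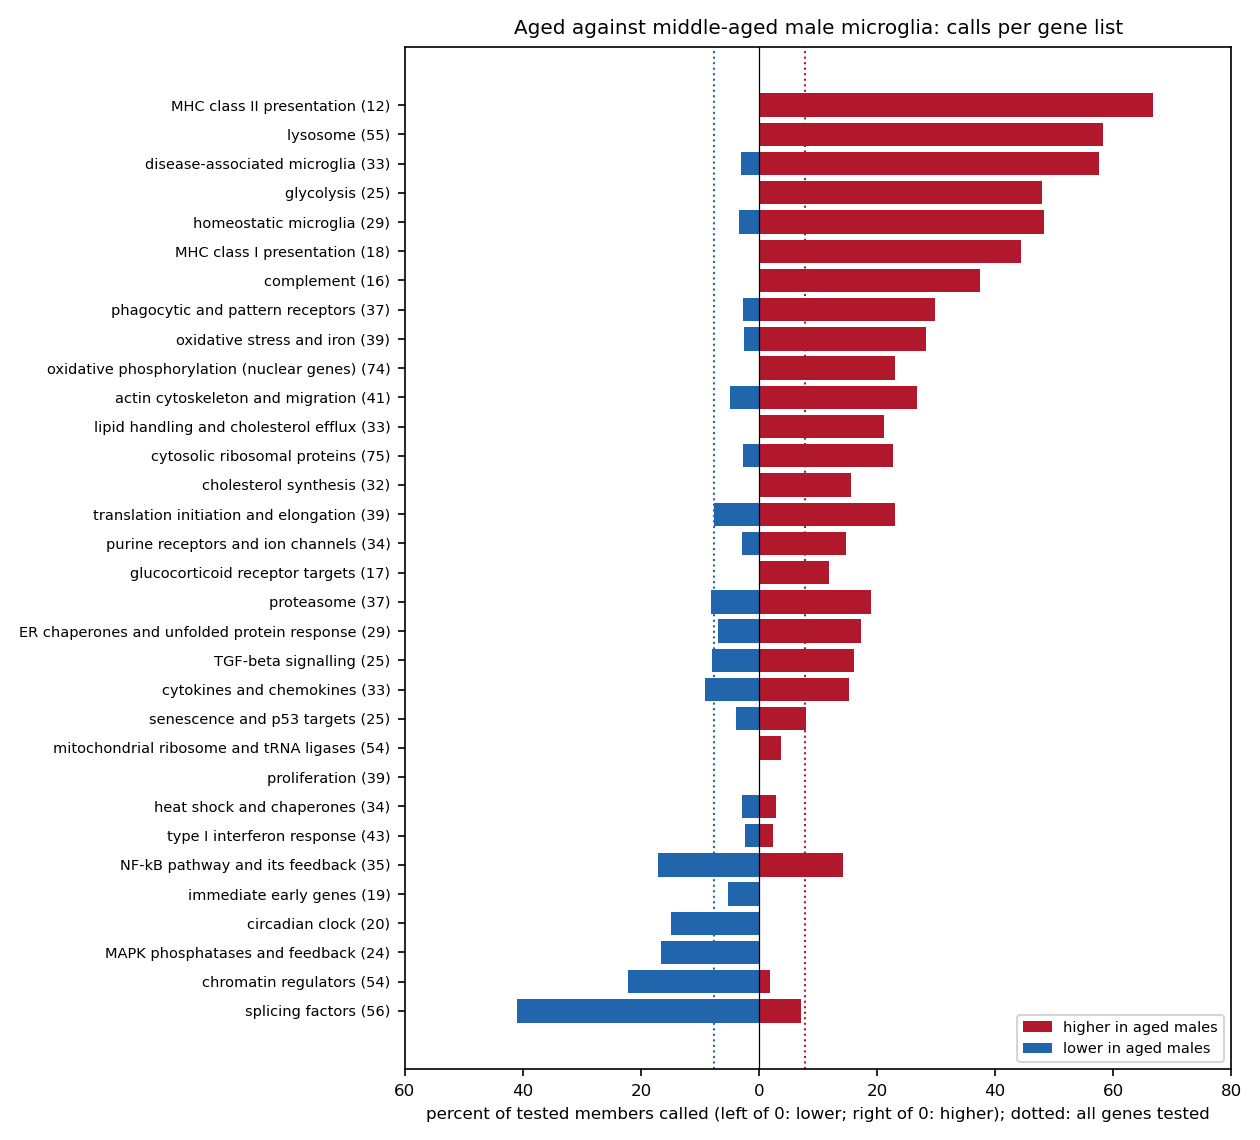
Bars give, for each gene list (tested members in brackets), the percent called higher (right) and lower (left) in 3 aged against 5 middle-aged male libraries, and dotted lines the 7.71% and 7.72% of all tested genes. In the 32 lists drawn, MHC class II, lysosome and disease-associated genes reach farthest to the right, and splicing factors and chromatin regulators farthest to the left.

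Transcripts of most genes of MHC class II antigen presentation were higher in aged males. Of the 12 class II members, 8 rose and none fell, with a median difference of 0.66 against -0.02 over all genes. Cd74, the invariant chain that guides class II molecules to the peptide-loading compartment, was at 4169.6, 4622 and 3590.5 normalized counts in aged males 1, 2 and 4 and at 1588, 1003, 1206, 1646 and 1024 in middle-aged males 1 to 5. Every aged library was above every middle-aged one (log2 difference 1.70 ± 0.19, adjusted p = 6.51e-06). H2-Ab1, the beta chain of the I-A molecule (chr17:34257689-34269419), was at 1610.4, 1840.3 and 1298 in the aged and 541, 404, 421, 571 and 324 in the middle-aged libraries (1.82 ± 0.28, adjusted p = 0.000134). The beta chain H2-Eb1 of the I-E molecule (chr17:34305867-34316674) was at 304, 509 and 307 against 92.1, 28.7, 33.5, 133 and 62.3. Its groups did not overlap either, and it rose by 2.59 ± 0.70 (adjusted p = 0.0143), with the call lost when aged male 2 was left out.

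The alpha chain H2-Aa was at 771, 1139 and 601 in aged and 178, 104, 97.4, 165 and 97.7 in middle-aged males. These groups were also separate, but the difference did not pass the test (2.70 ± 0.99, adjusted p = 0.0671). Its young male libraries, which enter the shared spread, ran from 1.69 to 38.5. Ciita, the co-activator that drives class II transcription, was at 28.3, 24.7 and 32.5 against 12.3, 9.15, 0.799, 15.8 and 11.2 and was not called (adjusted p = 0.307). The peptide-editing subunit H2-DMa rose, at 8151 to 9263 in aged against 5499.9 to 6449 in middle-aged males (0.52 ± 0.07, adjusted p = 3.47e-05). The genes for the DM-inhibiting DO molecule also rose: H2-Oa was at 1008 to 1368 against 639.8 to 836 (0.75 ± 0.13, adjusted p = 0.000443), and H2-Ob at 1966 to 2579.8 against 1407 to 1661 (0.57 ± 0.11, adjusted p = 0.0012). The other called members were the protease gene Ctss (not without aged male 1 or middle-aged male 2) and H2-DMb1 (not without aged male 4). The list had 3 members called without aged males 1 and 4.

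In the class I pathway 8 of 18 members rose and none fell (median 0.31). Tap1, a subunit of the peptide transporter into the endoplasmic reticulum, was at 2102, 2258 and 2228 in aged and 1232, 1506, 1502, 1562 and 1225 in middle-aged males (0.65 ± 0.11, adjusted p = 0.00026). Tapbp (tapasin), which holds class I molecules at that transporter, was at 18594, 17969 and 19846 against 12609.9, 12269, 13488, 12687 and 12310.0 (0.57 ± 0.07, adjusted p = 1.18e-05). Both sets of libraries were fully separate. Among the class I heavy chains, H2-K1 rose, at 17264, 15578 and 16339 against 10083, 9697, 15073, 13296 and 9381 (0.54 ± 0.15, adjusted p = 0.0183), a call lost without aged male 1 or aged male 4. H2-D1 was at 10481, 9826 and 10128 against 6848, 6218, 10477, 7898 and 6079, with middle-aged male 3 inside the aged range, and was not called (adjusted p = 0.065). H2-K2, which is outside the list, moved the other way, at 45.1, 2.96 and 1.16 against 115, 112, 59.9, 119 and 104 (-3.77 ± 0.80, adjusted p = 0.00249). H2-K1, H2-D1 and H2-K2 are close paralogs, so reads may have been split among them. Class I counts fell to 4 with libraries rescaled to the same total and to 2 without aged males 1 and 4.

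**Figure D3:**
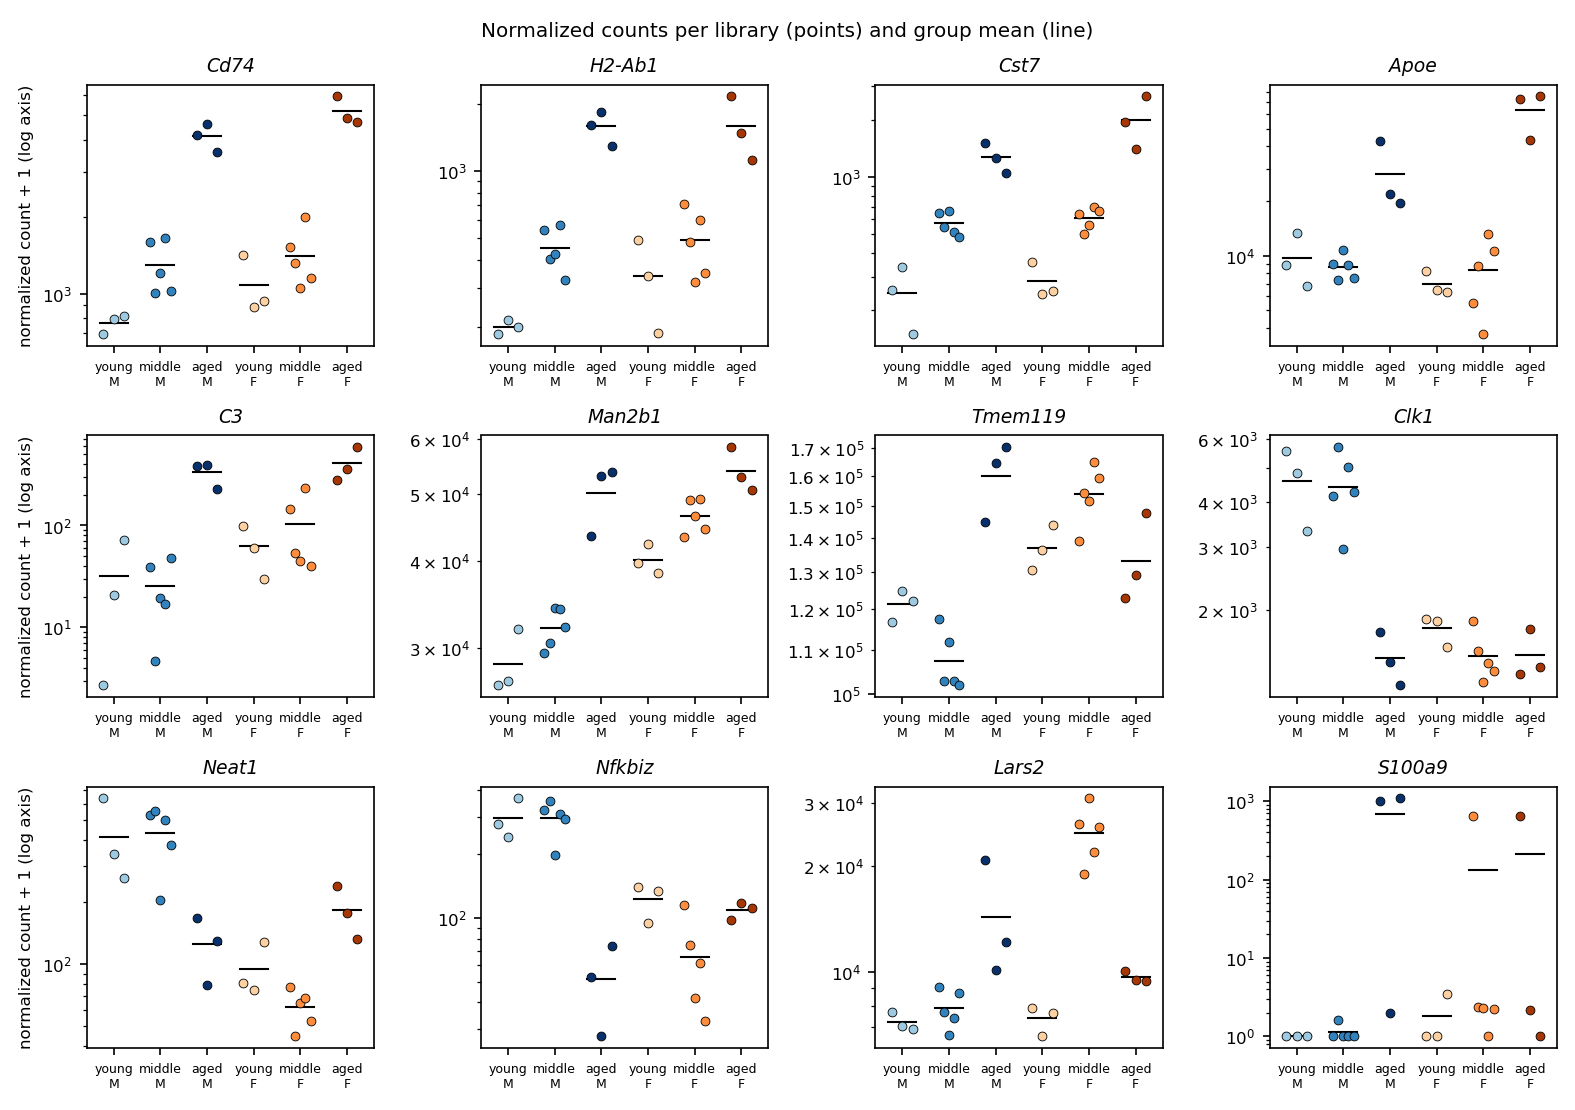
Normalized counts plus 1 on a log axis for 12 genes in every library (points) of the 6 groups, with the group mean as a line. Cd74 and Cst7 are highest in aged animals of both sexes, Clk1 and Nfkbiz are high in young and middle-aged males and low in aged males and in females, and S100a9 is near 1000 in aged males 1 and 4 and at 0.987 in aged male 2.

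Disease-associated genes were higher in aged males. Of 33 members, 19 rose and 1, the lysozyme gene Lyz2, fell, with a median of 0.44. The Lyz2 call was lost without aged males 2 or 4 or middle-aged males 3 or 5. Several of these genes also stand in other lists used here. Apoe, the lipid carrier protein, was at 42842, 21846 and 19443 in aged and 9003, 7373, 10748, 8824 and 7572 in middle-aged males. The lowest aged library was above the highest middle-aged one, and aged male 1 was about double the other aged libraries (1.61 ± 0.31, adjusted p = 0.00101). Cst7, an inhibitor of cysteine proteases, was at 1511, 1258 and 1055 against 644, 548, 659, 512 and 485 (1.16 ± 0.22, adjusted p = 0.000975). The integrin Itgax (CD11c) was at 655, 571 and 587 against 136, 259, 331, 177 and 156 (1.59 ± 0.34, adjusted p = 0.00295), and the groups of both genes were separate. Axl, a receptor for dying cells, was at 2124, 2884 and 2282 in aged males. In middle-aged males it was uneven, at 631, 587, 1801, 1491 and 530.1, with libraries 3 and 4 high (1.45 ± 0.36, adjusted p = 0.00763). Calls of all 4 genes were lost without aged males 1 and 4, where the list went from 19 members higher to 2. With aged male 2 alone against the middle-aged males the differences were 1.34 for Apoe, 1.15 for Cst7, 1.51 for Itgax and 1.71 for Axl.

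Spp1 (osteopontin) was at 3616, 590.1 and 355 in aged and 119, 68.3, 328, 148 and 429 in middle-aged males. Aged male 1 stood far above all others and aged male 4 lay below middle-aged male 5. The call (2.36 ± 0.71, adjusted p = 0.026) was lost without aged male 1 or middle-aged males 1 or 2. The membrane glycoprotein Gpnmb was at 100.4, 13.8 and 37.1 in aged males and at 0 in middle-aged males 1 to 4 but at 51.0 in middle-aged male 5 (4.13 ± 1.06, adjusted p = 0.00993). This call was lost without aged male 1 and in both edgeR and DESeq2. The growth factor Igf1 was at 90.1, 13.8 and 27.8 against 0.725, 3.66, 11.98, 4.53 and 0 (3.25 ± 0.94, adjusted p = 0.0207), a call lost without aged male 1 or middle-aged male 5. Cybb, the catalytic subunit of the phagocyte oxidase, was at 896, 945 and 755 against 241, 84.8, 745, 214 and 202. Middle-aged male 3 nearly reached the aged libraries, and the call (1.89 ± 0.61, adjusted p = 0.0373) was lost when any library but middle-aged male 3 was left out. Clec7a (dectin-1) was at 2501, 1794 and 1301 against 980.0, 1019, 1843, 1251 and 985 and Lpl (lipoprotein lipase) at 1984, 1364 and 1058 against 666, 928, 993, 1124 and 566. Neither passed the test (adjusted p = 0.0688 and 0.0737). Without aged male 1 the list had 12 members higher.

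Complement genes were higher for 6 of 16 members and lower for none (median 0.44). C3, the central component of the cascade, was at 385, 396 and 229.6 in aged and 38.4, 3.66, 18.4, 15.8 and 46.7 in middle-aged males (4.07 ± 0.80, adjusted p = 0.00131). C1qa, which opens the classical pathway, was at 172876, 139178 and 153680 against 112580, 89840.3, 106940, 98739.9 and 98108 (0.62 ± 0.08, adjusted p = 3.68e-05), and C1qc at 200172, 178788 and 200198 against 139796, 112923, 146464, 127831 and 123944 (0.57 ± 0.08, adjusted p = 5.64e-05). All 3 genes had separate groups. C4b was at 189, 244 and 194 against 33.3, 81.7, 153, 175 and 83.0, separate as well, but did not pass (adjusted p = 0.105). The count was 2 without aged males 1 and 4.

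Of 33 cytokine genes 5 were higher (15.2%) and 3 lower (9.09%, near the 7.72% of all genes). Il1a, the alpha form of interleukin-1, was at 2101, 2220.2 and 2747 in aged and 3631, 4899, 4258, 3753 and 3427 in middle-aged males (-0.76 ± 0.14, adjusted p = 0.000701), and this call held under all 20 alternatives. Il6 was at 159.6, 140.1 and 176 against 320.4, 508, 239, 331 and 348 (-1.10 ± 0.27, adjusted p = 0.0074). These 2 genes fell with no overlap, and Il18 was another that fell. The B cell chemoattractant Cxcl13 was at 342, 804 and 298 against 22.5, 11.0, 164, 63.4 and 29.4 (3.48 ± 1.10, adjusted p = 0.0328), a call lost without any 1 of the 3 aged males or without middle-aged males 1, 2 or 5. Ccl8, a monocyte chemoattractant, was at 85.0, 9.87 and 9.28 and had 0 reads in every middle-aged male. Its aged mean was at least 13.4-fold higher than a floor of 3 reads per library, and it had 84 reads in the aged males, most of them from aged male 1, without which it was not called. Tgfb1, the gene of transforming growth factor beta 1, rose, at 6564 to 8189 against 4404 to 5463 (0.55 ± 0.11, adjusted p = 0.00142). Without aged male 1 the list had 1 member higher in place of 5, and without middle-aged male 5 it had 3.

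Il1b was at 188, 145 and 124 against 107, 131, 161, 218 and 205 and Tnf at 0, 44.4 and 77.7 against 163, 119.5, 70.3, 28.7 and 62.3. The chemokines Ccl3 and Ccl4 were at 1147, 769.7 and 634 against 947, 918, 641, 556 and 515 and at 1279.6, 803 and 780.5 against 922, 599, 755, 669 and 653. All 4 overlapped between the groups and none was called (adjusted p = 0.909, 0.0649, 0.545 and 0.274).

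Within the NF-kB pathway and its feedback genes 5 of 35 members rose and 6 fell, and the list median of -0.03 turned to 0.12 with the length and GC trend removed. Nfkbiz, an atypical inhibitor that also co-activates inflammatory genes (chr16:55811375-55838899), was at 51.5, 26.6 and 73.1 in aged and 322, 356, 198, 309 and 292 in middle-aged males (-2.61 ± 0.35, adjusted p = 3.47e-05). Zfp36 (tristetraprolin), which promotes decay of cytokine mRNAs, was at 1461, 1557 and 2027 against 3797, 3248, 3085, 3230.2 and 3730.0 (-1.03 ± 0.11, adjusted p = 6.51e-06). Cflar, an inhibitor of death-receptor signalling, was at 1123, 1279 and 1379 against 2170.2, 2106, 1974, 2062 and 2267 (-0.75 ± 0.12, adjusted p = 0.000134). All 3 were separate between the groups and were called under every one of the 20 alternatives. The bacterial lipoprotein receptor Tlr2 rose, at 10360.2 to 12412 against 5128 to 9849.8 (0.63 ± 0.14, adjusted p = 0.00276). The higher count was 3 without aged male 1. Zfp36 is also 1 of the 4 of 24 MAPK phosphatase and feedback genes that fell, where none rose.

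Homeostatic genes were not lower as a group. Of 29 members 14 rose and 1 fell (median 0.26, and 0.12 with libraries rescaled to the same total, where the median of all genes was -0.16). Tmem119 was at 144917, 164630 and 170312 in aged and 117579, 102813, 111832, 102775 and 101795 in middle-aged males (0.57 ± 0.08, adjusted p = 3.07e-05). The fructose transporter Slc2a5 was at 41611, 41941 and 48727 against 29898, 29355, 30972, 27967 and 28502 (0.58 ± 0.08, adjusted p = 7.03e-05), and the receptor Tgfbr1 at 51340.3, 69588 and 65238 against 40274, 48796, 46059.6, 42354 and 44245 (0.48 ± 0.10, adjusted p = 0.00274). All 3 were separate between groups and held their calls under each alternative. Trem2, the lipid-sensing receptor of microglia, rose, at 41375 to 51602 against 28412 to 35004 (0.54 ± 0.09, adjusted p = 0.0002). Siglech was the member that fell, though not without aged males 2 or 4. P2ry12 (adjusted p = 0.807), the fractalkine receptor Cx3cr1 (126144, 137619 and 132667 against 130416, 143445, 168008, 143699 and 139366, adjusted p = 0.31) and Sall1 (11964, 14596 and 15355 against 13434, 12826, 12069, 12592 and 13388, adjusted p = 0.466) overlapped and were not called. Without aged males 1 and 4 the list had 6 members higher.

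Lysosomal genes gave more calls than any other list described here. Of 55 members, 32 rose and none fell, and all 55 differences were positive (median 0.30). Man2b1, a lysosomal alpha-mannosidase, was at 43450.4, 53046 and 53856 in aged and 29425, 30504, 34209, 34068 and 32139 in middle-aged males (0.64 ± 0.08, adjusted p = 2.04e-05). Acid alpha-glucosidase Gaa was at 5995, 6787 and 6708 against 4163, 4238, 5089, 4027 and 4393 (0.57 ± 0.09, adjusted p = 0.000181), and Naglu, which degrades heparan sulfate, at 7051, 7835 and 10417 against 6131, 4924, 5567, 5726 and 5416 (0.59 ± 0.13, adjusted p = 0.00282). Each of these aged libraries was above every middle-aged one. The lysosomal tetraspanin Cd63 (0.60 ± 0.12, adjusted p = 0.00108), the beta-galactosidase Glb1 (0.44 ± 0.10, adjusted p = 0.00396) and the galactosylceramidase Galc (0.60 ± 0.14, adjusted p = 0.00672) rose by similar amounts, and the Galc call was lost without aged male 2. With libraries rescaled to the same total 17 members were higher, and without aged males 1 and 4 there were 8.

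In lipid handling 7 of 33 members rose and none fell, among them Npc2, which moves cholesterol out of the lysosome (14676 to 16754 against 11208 to 13083, 0.36 ± 0.07, adjusted p = 0.0018). Cholesterol synthesis had 5 of 32 members higher. These included its master regulators Srebf2, at 888, 834 and 1164 against 590.0, 461, 621, 578 and 403 (0.86 ± 0.16, adjusted p = 0.000975), and Srebf1, at 1094, 983 and 1089 against 765, 692, 661, 700.4 and 651 (0.60 ± 0.16, adjusted p = 0.0111), both with separate groups. The count was 3 without aged male 2, 2 without aged male 4, and 3 without middle-aged males 2 or 5. With aged males 1 and 4 left out no cholesterol gene was called by limma.

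Energy metabolism genes rose in part. In glycolysis 12 of 25 members rose and none fell (median 0.40). The pyruvate kinase Pkm was at 5615, 5092 and 5659 in aged and 3747, 3171, 3980.0, 3076 and 3221 in middle-aged males (0.67 ± 0.09, adjusted p = 3.61e-05), and hexokinase 2 (Hk2) at 3785, 4524 and 3183 against 3151, 2075, 2217, 2008 and 2446 (0.69 ± 0.13, adjusted p = 0.000871). Both were separate and kept their calls under all alternatives. Of 74 nuclear genes of oxidative phosphorylation 17 rose and none fell (median 0.20), with Atp5a1, the alpha subunit of ATP synthase, at 10936, 12538 and 12991 against 8308, 7839.8, 9233, 7839.9 and 8622 (0.54 ± 0.07, adjusted p = 1.62e-05) and Cox4i1 of complex IV at 7271, 5137 and 5097 against 4378, 3533, 4089, 3598 and 4121 (0.55 ± 0.11, adjusted p = 0.00129). The counts were unsteady: 3 glycolysis and 5 oxidative phosphorylation genes were higher with libraries rescaled to the same total, and 6 and 7 without aged male 1. Glycolysis had 6 without aged male 4, and oxidative phosphorylation 8 and 10 without middle-aged males 2 and 4. Cytosolic ribosomal proteins had 17 of 75 members higher and 2 lower. Rplp1 was at 1906, 1125 and 1062 against 948, 513, 646, 646 and 683 (0.96 ± 0.20, adjusted p = 0.00184), highest in aged male 1, and without that library 3 members of the list were higher (9 without middle-aged male 2). Those that fell were Rpl10a and Rpl10, the latter at 18.6 to 48.9 against 57.5 to 125 (-1.68 ± 0.42, adjusted p = 0.00914), a call lost without aged male 4. Rpl10a was not called without aged males 2 or 4 or middle-aged males 1, 2, 4 or 5. Ribosomal protein genes have many processed copies, so their counts are uncertain.

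Receptor and actin cytoskeleton genes rose in part. In the phagocytic and pattern receptor list 11 of 37 members rose and 1, Cd33, fell (not without aged male 1). The integrin Itgb5 was at 89326, 85128 and 90934 against 62509.6, 60295, 66882, 62882 and 61832 (0.49 ± 0.06, adjusted p = 9.07e-06), the endotoxin co-receptor Cd14 at 17636, 16035 and 15953 against 11235, 9495, 13065, 11663 and 10495 (0.57 ± 0.09, adjusted p = 0.000104), and the double-stranded RNA receptor Tlr3 at 3579, 3921 and 4223 against 2218, 2528, 2829.8, 2531 and 2274 (0.66 ± 0.10, adjusted p = 0.000181). None of these overlapped, and each was called under all alternatives. Cyba, the membrane partner of the phagocyte oxidase, rose, at 15902 to 19867 against 9538 to 13062 (0.70 ± 0.10, adjusted p = 3.68e-05), within a list of oxidative stress and iron genes of which 11 of 39 rose and 1, the iron exporter Slc40a1, fell (not without aged male 1). The higher count was 5 without aged male 1, 7 without aged male 4 and 6 without middle-aged male 2, and for the receptors it was 7 without middle-aged male 2. Among purine receptors and ion channels 5 of 34 rose and 1 fell: the store-operated calcium channel Orai1 rose, at 5766 to 7394 against 3809.6 to 5201 (0.64 ± 0.12, adjusted p = 0.000701), and the channel kinase Trpm7 fell, at 642 to 1072 against 1192 to 1881 (-0.96 ± 0.18, adjusted p = 0.00106). Of 41 actin cytoskeleton genes 11 rose and 2 fell. The actin-capping protein Capg was at 2232, 1698 and 1941 against 1069, 962, 950.5, 1229 and 1001 (0.91 ± 0.12, adjusted p = 2.84e-05), and talin 1 (Tln1), which links integrins to actin, at 8093, 9034 and 9506 against 6701, 6169, 5061, 6364 and 6625 (0.53 ± 0.11, adjusted p = 0.0018). The actin list had 3 members higher with libraries rescaled to the same total.

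The lower genes included a group of RNA-processing genes. Of 56 splicing factors 23 fell and 4 (Hnrnpl, Ptbp1, Sf1 and Srsf9; 2 without aged male 4) rose (median -0.30, and -0.17 with the length and GC trend removed, where 16 fell and 7 rose). The kinase Clk1, which phosphorylates SR splicing factors (chr1:58410189-58424066), was at 1743, 1435 and 1233 in aged and 4176, 5691, 2965, 5026 and 4265 in middle-aged males (-1.57 ± 0.18, adjusted p = 6.51e-06). Its relative Clk4 was at 823, 541 and 336 against 1244, 1623, 1079.9, 1571 and 1372 (-1.36 ± 0.20, adjusted p = 9.15e-05). The SR protein Srsf7 was at 1792, 2119.6 and 1890.3 against 3615, 4347, 4131, 4931 and 4953 (-1.18 ± 0.13, adjusted p = 6.51e-06), and all 3 groups of values were separate. Srsf5 fell by 1.24 (adjusted p = 0.000363), with middle-aged male 3, at 1342, just below aged male 1, at 1344. Middle-aged male 3 was the lowest middle-aged library for Clk1, Clk4, Srsf5, Neat1 and the RNA helicase Ddx17 (691, 682 and 469 against 1387, 1804, 733, 1212 and 1497, -1.07 ± 0.23, adjusted p = 0.00264). Neat1, the architectural RNA of paraspeckles, was at 166, 78.0 and 129 against 531, 556, 204, 499.6 and 381 (-1.78 ± 0.34, adjusted p = 0.00115). Without aged males 1 and 4 the list had 9 members lower.

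These genes were also low in females. Clk1 was at 1257 to 1868 in middle-aged and 1325 to 1775 in aged females, Srsf7 at 2234 to 2940.4 and 2312 to 2534, and Neat1 at 43.7 to 76.8 and 131 to 240.0. The young males were at 3325 to 5569, 3288 to 5673 and 262 to 638, near the middle-aged males. Of the splicing factors that fell, 23 of 23 had an aged male mean nearer to middle-aged females than to middle-aged males, close to the 95.8% of all lower genes, and of the chromatin regulators that fell 8 of 12 (66.7%).

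Chromatin regulators followed the same direction, with 12 of 54 lower and 1 higher (median -0.19). Dnmt3b, a de novo DNA methyltransferase, was at 5.15, 0.987 and 20.9 in aged and 68.9, 121, 161, 74.7 and 64.9 in middle-aged males (-3.85 ± 0.59, adjusted p = 0.000131). The histone H3K4 methyltransferase Kmt2a was at 539, 454 and 508 against 1127, 1156, 1027, 1373 and 1194 (-1.23 ± 0.22, adjusted p = 0.000648), and Kmt2c at 1510.0, 1366 and 1464 against 2016, 2569.8, 2575, 3028 and 2579 (-0.81 ± 0.16, adjusted p = 0.00119). The dioxygenases Tet2 and Tet3, which oxidize methylcytosine, were at 444, 474 and 590.3 against 1059, 1064, 1122, 1119 and 874 (-1.06 ± 0.25, adjusted p = 0.00587) and at 622, 759.8 and 751 against 1574, 1401, 922, 1411 and 1347 (-0.89 ± 0.16, adjusted p = 0.000545). The H3K36 methyltransferase Setd2 was at 677 to 1111 against 1347 to 2368 (-0.93 ± 0.22, adjusted p = 0.00595), a call lost without aged male 1. None of these 6 genes overlapped between the groups. The maintenance methyltransferase Dnmt1 was the member that rose, a call lost when aged male 2 or aged male 4 was left out. The list had 5 members lower without aged males 1 and 4.

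**Figure D4:**
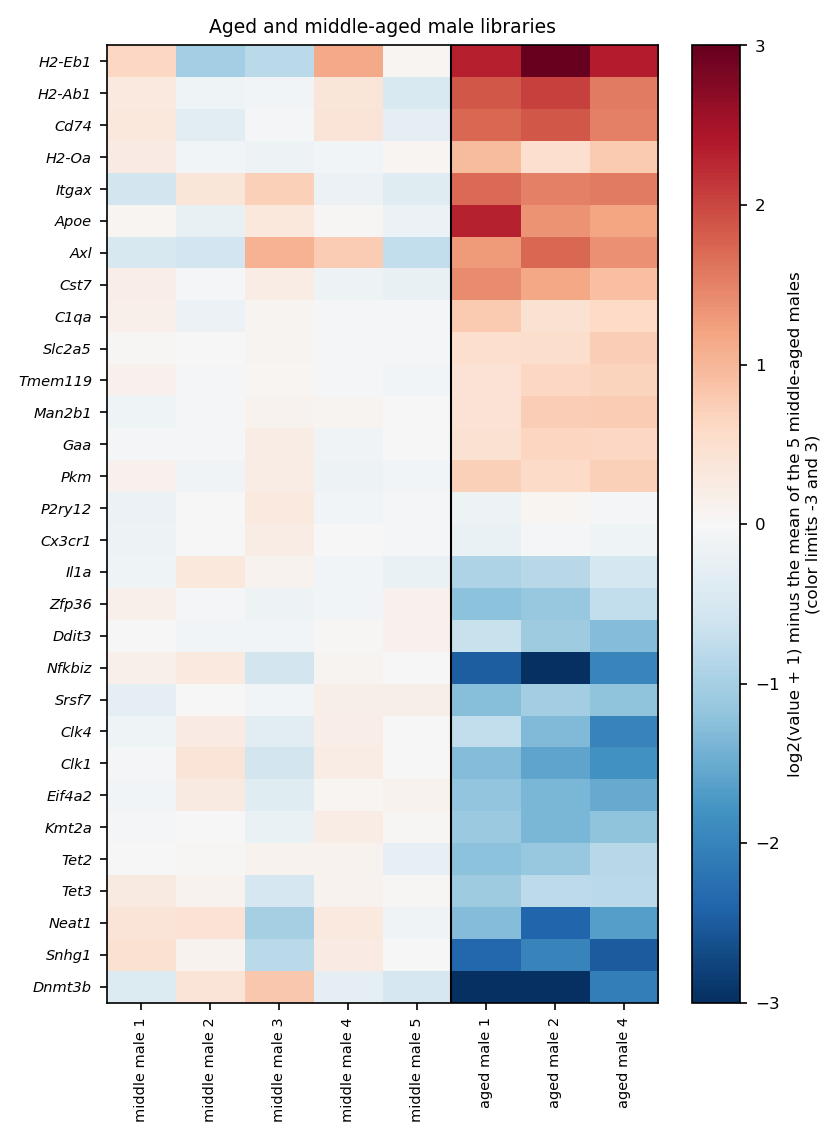
Rows are 30 genes and columns the 5 middle-aged and 3 aged male libraries; color is log2(normalized count + 1) minus the mean of the middle-aged males, from -3 (blue) to 3 (red). Class II, disease-associated and lysosomal genes are red in all 3 aged libraries, P2ry12 and Cx3cr1 are near white, and splicing, chromatin and NF-kB feedback genes are blue.

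Of 39 translation factors 9 rose (23.1%) and 3 fell (7.69%, against 7.72% of all genes). The helicase Eif4a2 was at 1050.4, 925 and 843 in aged and 2282, 2879.5, 1875, 2510.2 and 2606 in middle-aged males (-1.36 ± 0.16, adjusted p = 1.18e-05), and Eif5 at 3883, 3485 and 2736 against 4719, 5872, 6264, 4982 and 5349.8 (-0.70 ± 0.11, adjusted p = 0.000246). In the unfolded protein response list 5 of 29 rose (17.2%; 3 without aged male 1) and 2 fell (6.90%). Both that fell are transcription factors of the integrated stress response: Atf4 was at 2860.4, 1895 and 2001 against 3436, 3467, 3508, 3398 and 3230.1 (-0.62 ± 0.11, adjusted p = 0.000361) and its target Ddit3 (CHOP) at 309, 235 and 201 against 489, 468, 465, 506 and 536 (-1.01 ± 0.19, adjusted p = 0.000884). All 4 genes kept their calls under each alternative. The TGF-beta list had 4 of 25 higher (16%, 2 members without aged male 2). It had 2 lower (1 without aged male 1, 4 without aged male 2), and that 8% was near the 7.72% of all genes. The proteasome had 7 of 37 higher (18.9%, 3 members without aged male 2 or middle-aged male 2, 4 without middle-aged male 4). It had 3 lower (8.11%), also near the share of all genes. Mitochondrial ribosome and tRNA ligase genes had 2 of 54 higher, Lars2 and Mrpl2 (3.70%, below the 7.71% of all genes). The Mrpl2 call was lost without any 1 of the aged males or without middle-aged males 2, 3, 4 or 5.

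Single genes with the largest decreases were of several kinds. Lime1, a membrane adaptor of lymphocyte signalling, was at 2.57, 8.88 and 61.5 in aged and 315, 329.9, 146, 296 and 342 in middle-aged males (-4.40 ± 0.60, adjusted p = 3.68e-05). Its exons overlap those of Zgpat on the same strand, so its reads may be shared. The histone genes Hist1h2ac and Hist1h2bg were at 9.01, 2.96 and 2.32 against 68.1, 56.7, 70.3, 104 and 49.3 (-3.75 ± 0.74, adjusted p = 0.00131) and at 9.01, 15.8 and 13.9 against 101, 84.8, 79.1, 101 and 81.3 (-2.73 ± 0.48, adjusted p = 0.000499). Histone genes belong to a multicopy family, which makes their counts uncertain. The small nucleolar RNA host genes Snhg17 (29.6, 40.5 and 6.96 against 191, 209.8, 91.9, 176 and 194, -2.95 ± 0.62, adjusted p = 0.00247) and Snhg1 (20.6, 26.6 and 18.6 against 151, 119, 62.3, 131 and 109, -2.29 ± 0.44, adjusted p = 0.00111) fell too. Tmem86b, a lysoplasmalogenase, had 0 in aged males 1 and 2 and 19.7 in aged male 4 against 27.2 to 76.8 (-4.21 ± 0.93, adjusted p = 0.00342), without a call in edgeR. Kctd9 (-2.59 ± 0.49, adjusted p = 0.000901), Igflr1 (-3.45 ± 0.69, adjusted p = 0.00147) and the exchange factor Arhgef4 (-2.43 ± 0.46, adjusted p = 0.000899) held their calls under all alternatives. Igsf9, at 0, 21.7 and 10.4 against 141, 48.2, 57.5, 34.7 and 51.0, did not: its call (-3.23 ± 1.04, adjusted p = 0.0372) was lost without aged males 1 or 4 or middle-aged males 1, 2, 3 or 5.

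Interferon-response genes gave few calls: 1 of 43 members rose and 1 fell, below the 7.71% and 7.72% of all genes, with a median of 0.16. Lgals3bp, a secreted scavenger protein, was at 13393, 11251 and 11845 against 5468, 4860.2, 10495, 8763 and 5077 (0.88 ± 0.21, adjusted p = 0.00537). The GTPase Mx2 was at 66.9, 39.5 and 27.8 against 192, 127, 173, 139 and 69.2 (-1.63 ± 0.44, adjusted p = 0.0143), a call lost without aged male 4. Ifit3, a classical target of type I interferon, was at 662, 1175 and 884 in aged and 307, 387, 1323, 528 and 338 in middle-aged males, and middle-aged male 3 exceeded all aged libraries. It was not called (0.85 ± 0.37, adjusted p = 0.128). Middle-aged male 3 was also the highest middle-aged library for H2-D1, H2-K1, Axl, Cybb, Clec7a, Tlr2 and Lgals3bp. Without middle-aged male 3 the list had 5 members higher. The list median turned to -0.02 without aged male 2 and -0.01 without middle-aged male 1, and was 0.50 without aged male 1, 0.43 without middle-aged male 3 and 0.61 without aged males 1 and 4.

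Several programs gave few calls by number, or none. Over all genes 7.71% were higher and 7.72% lower. The clock list had 15% lower and the glucocorticoid receptor list 11.8% higher, both above those shares. The senescence list had 8% higher and 4% lower, the heat shock list 2.94% each way, and the immediate early list 5.26% lower. No proliferation gene of 39 was called by limma, edgeR or DESeq2, and 3 had an unadjusted p under 0.05 in limma. Of 34 heat shock genes the co-chaperone Bag3 rose (418, 773 and 394 against 354, 252, 265, 343 and 356, 0.69 ± 0.20, adjusted p = 0.0186), highest in aged male 2 and not called without it, and the regulator Hsf1 fell (-0.40 ± 0.12, adjusted p = 0.0242), a call lost without aged males 1 or 4 or middle-aged males 1 or 5. The abundant chaperones Hsp90ab1 (12367 to 14677 against 12638 to 16940.0) and Hspa8 (4778 to 6441 against 4171 to 6221) overlapped. In the senescence list Glb1 and Igfbp4 (not without aged male 4) of 25 rose and 1 fell: Mdm2, the p53 antagonist, was at 1183, 1286 and 1472 against 1711, 2007, 1741, 1489 and 1577 (-0.37 ± 0.12, adjusted p = 0.0381) and lost its call without aged males 1 or 2 or middle-aged males 1, 2 or 3. Cdkn1a (p21) was at 497, 484 and 597 against 338, 314, 474, 476 and 389 (adjusted p = 0.324), and Cdkn2a (p16 and p19) stayed under 10 in all 8 libraries and was not tested. Of 20 clock genes none rose and 3 fell, including the activator Arntl (135, 167 and 121 against 244, 431, 362, 230.2 and 469, -1.25 ± 0.34, adjusted p = 0.0154), not called without aged male 4. Per1, Per2 and Nr1d1 were not called (adjusted p = 0.301, 0.764 and 0.0811), although all 3 aged values of Nr1d1 (188, 237 and 235) were above the middle-aged ones (152, 151, 101, 136 and 79.6). Zfp36 was the only immediate early gene called of 19, and among glucocorticoid receptor targets 2 of 17 rose, Mt1 and the neutrophil gene Lcn2. Both calls were lost without aged male 1 or aged male 4, and that of Mt1 also without middle-aged males 2, 3, 4 or 5.

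Markers of other cells were checked in the same libraries. Neutrophil markers summed to 3964, 15.8 and 6810 normalized counts in aged males 1, 2 and 4 and to 0.799 to 15.8 in the middle-aged males. S100a9, a calcium-binding protein of neutrophils, was at 1000.2, 0.987 and 1086 in the aged males and at 0 to 0.610 in the middle-aged males. Ltf (lactoferrin), Lcn2 and Chil3 were at 747, 0.987 and 1438, 246, 0.987 and 674 and 272, 0.987 and 735, with 0 reads in all middle-aged males. All 4 genes were high in aged males 1 and 4 and at 1 read in aged male 2. Against a floor of 3 reads per library the aged means were at least 281-fold, 118-fold and 129-fold higher for Ltf, Lcn2 and Chil3. Of 11 tested neutrophil genes 7 were called higher, none when aged male 1 or aged male 4 was left out, and 3 or 4 without middle-aged males 1, 2, 3 or 5. In females these markers summed to 21.3 to 2777 in the aged and 5.07 to 3665 in the middle-aged libraries. The neutrophil genes Mmp9 and Padi4 were at 0 in all 8 male libraries.

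Monocyte markers summed to 193 to 417 in aged and 107 to 172 in middle-aged males, with 1 of 8 tested genes called. This was Ace (107, 94.7 and 37.1 against 0, 31.1, 1.60, 0 and 25.9, 3.97 ± 1.24, adjusted p = 0.0315), a call lost without aged males 1 or 2 or middle-aged males 1, 3 or 4. Border-associated macrophage markers summed to 1470.3 to 1721 against 798 to 1400.2, with Ccl24 and F13a1 called of 11 tested. The coagulation factor gene F13a1 (369, 67.1 and 108 against 0, 53.7, 0, 23.4 and 0.865, 4.87 ± 1.52, adjusted p = 0.0308) lost its call without aged males 1 or 4 or middle-aged males 1, 3 or 5. B cell markers summed to 2141 to 2351 against 1219 to 1606, nearly all from 2 genes, Cd79b and the sialic acid receptor Cd22 (1224, 1427 and 1328 against 522, 813, 840.2, 835 and 637, 0.88 ± 0.17, adjusted p = 0.00104), while the plasma cell gene Jchain was at 0. Oligodendrocyte markers summed to 86284 to 88889 against 63236 to 76400.4. Most of that was Trf (0.33 ± 0.07, adjusted p = 0.00361), the iron carrier transferrin that microglia also express. Cnp was called too (0.34 ± 0.09, adjusted p = 0.0126), though not without aged male 4, while Mbp overlapped, at 1174 to 1529 against 893 to 1332. Choroid plexus markers summed to 4085 to 7959 against 25.4 to 3546, mostly Ttr and Enpp2, and none of 6 was called by limma, edgeR or DESeq2 or had an unadjusted p under 0.05. The erythroid (4 tested) and T and NK cell (2 tested) lists gave the same counts of 0. The neuron and endothelial lists had no call by the 3 tools and 2 genes each with an unadjusted p under 0.05. In the astrocyte list limma called none of 13, with 3 at an unadjusted p under 0.05, and edgeR and DESeq2 called 1. Y-linked genes summed to 2795 to 2998 in aged and 3959 to 5124 in middle-aged males, and limma called none of 4, with 1 at an unadjusted p under 0.05, while edgeR and DESeq2 called 2. Ddx3y was separate between the groups, at 794, 1119 and 1092 in aged against 1928, 2373, 1822, 2084.5 and 2176 in middle-aged males. The female libraries, where the Y-linked sum was 0 to 6.74, also enter the shared spread. The part of these markers in the other results was not tested.

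The same step in females had other values for many of these genes, with 116 genes higher (0.924%) and 57 lower (0.454%) in aged against middle-aged females, 1.38% in either direction. As a test of the difference itself, the male step minus the female step was above 0 for 424 genes (3.38%) and below 0 for 476 (3.79%), or 7.17% in all. Genes higher in both sexes numbered 42, which is 4.34% of the male and 36.2% of the female list. Lower in both were 7, which is 0.722% of the male and 12.3% of the female list. Over all genes 7.71% were higher and 7.72% lower in males. Another 16 genes were called in opposite directions in the sexes. The difference shares its male libraries with the male step. Of the genes allowed by the naming rule given below and called for the difference, 73 kept the call with the replicate number as a block and 27 lost it. Leaving out 1 library lost from 9 of these calls (middle-aged male 3) to 31 (aged male 4), and 28 without aged female 1.

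Of the 12 class II members 3 rose in females, against 8 in males (median 0.36 against 0.66), and 1, H2-DMa, had a step that differed between the sexes, higher in males (0.46 ± 0.10, adjusted p = 0.00625). In females Cd74 differed by 1.91 ± 0.19, adjusted p = 4.23e-06, and H2-Ab1 by 1.70 ± 0.28, adjusted p = 0.00199. The male minus female value was -0.21 ± 0.27, adjusted p = 0.7 for Cd74 and 0.12 ± 0.39, adjusted p = 0.903 for H2-Ab1. The disease-associated genes Apoe and Lpl had lower steps in males than in females. Apoe was at 43522 to 75297 in aged and 3679 to 13212 in middle-aged females (-1.42 ± 0.43, adjusted p = 0.0476), and Lpl at 3019 to 6171 against 545 to 1558 (-1.35 ± 0.41, adjusted p = 0.0485). Ccl3 (-1.21 ± 0.35, adjusted p = 0.0368), Ccl4 (-1.29 ± 0.32, adjusted p = 0.0159) and Tnf (-4.11 ± 1.20, adjusted p = 0.0387) also had lower steps in males. In the interferon list the median step was 1.27 in females and 0.16 in males. Among its genes 3 had a lower step in males by the test, of which Mx2 is 1 (-2.28 ± 0.63, adjusted p = 0.0283).

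Homeostatic genes differed in the other direction, with 13 of 29 having a higher step in males and none a lower one. Tmem119 was at 122864 to 147910 in aged and 139118 to 164913 in middle-aged females (0.78 ± 0.11, adjusted p = 0.000149), and Slc2a5 at 34308 to 40920.4 against 44709 to 48099 (0.90 ± 0.12, adjusted p = 0.000121). The middle-aged female levels of both were above every middle-aged male library. Lysosomal genes had 9 of 55 with a higher male step, and actin genes 9 of 41, such as Tln1 (0.88 ± 0.15, adjusted p = 0.00108). The splicing list had 18 of 56 with a lower step in males and 5 with a higher one, and the chromatin list 12 of 54 and 1. Neat1 fell in males and rose in females, where it was at 131 to 240.0 in aged against 43.7 to 76.8 in middle-aged females (1.55 ± 0.34, adjusted p = 0.021). Lars2, the mitochondrial leucyl-tRNA synthetase, was at 20737, 10131 and 12143 in aged and 9089, 7729, 6637, 7434 and 8717 in middle-aged males (0.80 ± 0.16, adjusted p = 0.00171), and at 9450.4 to 10048 against 18951 to 30963 in females (-1.34 ± 0.16, adjusted p = 7.44e-05). Its male minus female value was 2.13 ± 0.23, adjusted p = 2.41e-05, and aged male 1 was about double the other aged males.

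Among genes picked by the size of the difference, Glb1l2, a beta-galactosidase-like gene, was at 88.8, 56.2 and 62.6 in aged males and at 0 to 8.70 in middle-aged males, against 0 to 5.61 and 0 to 37.4 in aged and middle-aged females (6.95 ± 1.50, adjusted p = 0.00613). Chn1, a GTPase-activating protein, was at 90.1, 21.7 and 41.7 against 0, 0.610, 0, 2.26 and 11.2 in males and at 1.35 to 17.2 against 13.2 to 61.3 in females (6.65 ± 1.22, adjusted p = 0.00182). The nuclease Noct (2.95 ± 0.79, adjusted p = 0.0239) and the tetraspanin Cd151 (1.98 ± 0.50, adjusted p = 0.0178) also had a higher male step, and the adaptor Trip6 a lower one (-4.05 ± 1.18, adjusted p = 0.0372). In males alone the Noct call was lost without aged male 1, and Trip6 overlapped, with middle-aged male 3 at 20.8 inside the aged range. Cd151 was not called in males alone (adjusted p = 0.0568).

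**Figure D5:**
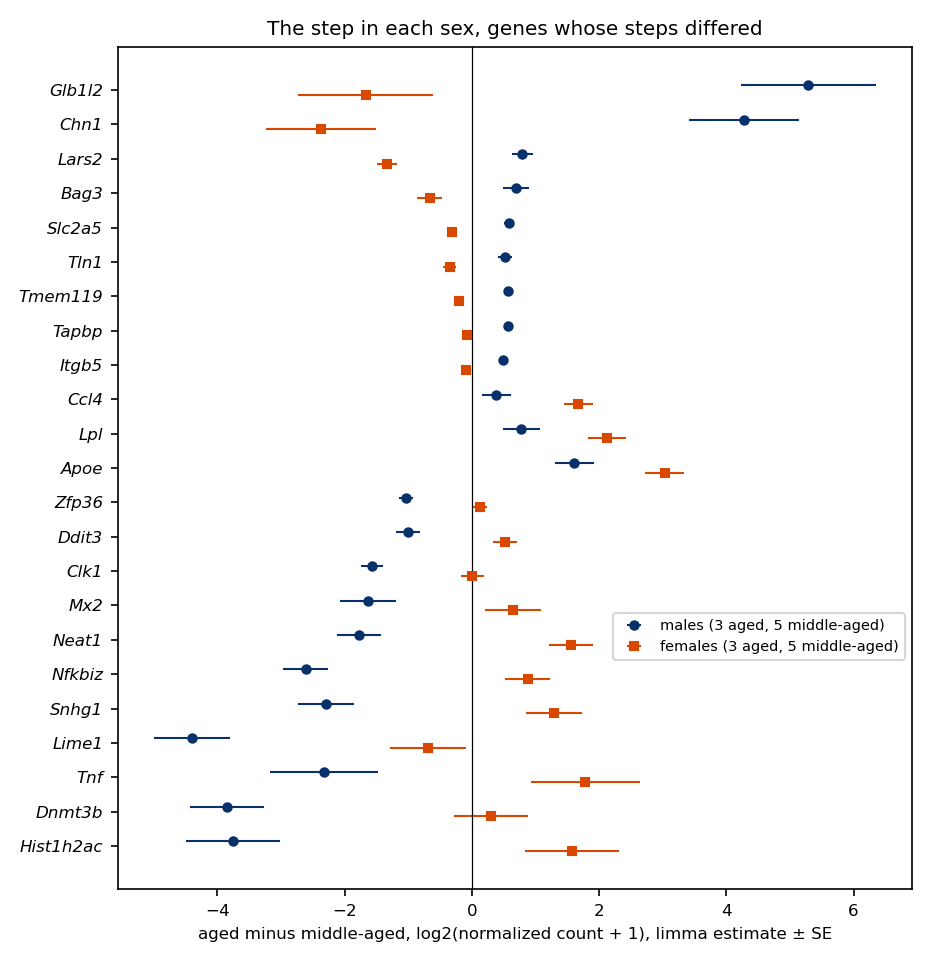
Points give the aged minus middle-aged difference in log2(normalized count + 1) with its SE, in males (circles) and females (squares), for 23 genes whose steps differed by the test. Tmem119 and Slc2a5 lie above 0 in males and below 0 in females, Apoe lies above 0 in both and farther in females, and Neat1 and Nfkbiz lie below 0 in males and above 0 in females.

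Young adult males give the earlier part of the male course. Between 8 and 52 weeks 222 genes were called (1.77%, with 171 higher, 1.36%, and 51 lower, 0.406%), and between 8 and 104 weeks 2124 (1168 higher, 9.31%, and 956 lower, 7.62%); both comparisons share male libraries with the step described here. Cst7 was at 148 to 336 in young males, 485 to 659 in middle-aged and 1055 to 1511 in aged ones, and Capg at 517 to 624, 950.5 to 1229 and 1698 to 2232. Both rose at each interval, by 1.27 and 1.16 for Cst7 and by 0.90 and 0.91 for Capg. Axl (1.57 and 1.45), Cd22 (1.56 and 0.88), H2-Ab1 (1.16 and 1.82) and Cd74 (0.73 and 1.70) did so too. Apoe was at 6805 to 13348 in young males, overlapping the middle-aged ones (-0.11, not called), and Man2b1 at 26454 to 31868 (0.18, not called). For the lower genes Clk1, Dnmt3b and Nfkbiz the interval from 8 to 52 weeks had values of -0.05, -0.06 and 0.00, none called. Zfp36 fell at both intervals, with 4958 to 6324 in young, 3085 to 3797 in middle-aged and 1461 to 2027 in aged males (-0.69 and -1.03). Hsp90ab1 was at 17514 to 46084 in young males and fell by 1.11 by 52 weeks, with no call after that.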

How the data were processed

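The deposited table holds 1 signal column per library for 18072 genes: read counts that the authors divided by 1 size factor per library. Every value was a whole multiple of its library's step (100% within a tolerance of 0.01 reads), so whole reads were recovered. Per the submitters' processing notes, the tools were STAR 2.5.2, Trim Galore 0.4.3, R 4.1.0, DESeq2 1.32.0, MultiQC 1.5.0 and FastQC 0.67, with build mm10. For the counting tool, the name was not given in the sources used here. Per the labels' protocols, RNA was extracted with PicoPure, amplified with the SMARTer Ultra Low Input kit and made into Nextera XT libraries, which do not mark strand. Without strand, reads of overlapping genes cannot be told apart; exons of another gene in the table overlap those of Lime1, Tap1, Tapbp, Glb1, H2-DMa, H2-Oa, Cd74, P2ry12, Il1a, Il1b, Nr1d1, Arhgef4, Atp5a1, Cnp, Ddit3, Ddx17, Eif4a2, Eif5, Rpl10, Tln1, Srebf1, Cox4i1, Ciita, Glb1l2 and Snhg1.

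The deposited values are counts already divided by size factors, so a test on the log scale was the main one. For this, limma 3.58.1 (R 4.3.3) with a trended prior was fitted to log2(value + 1) over all 22 libraries with 6 group means. Genes needed a value of 10 in at least 3 libraries (12552 genes), p-values were Benjamini-Hochberg adjusted over all of them, and 0.05 was the threshold. Genes were named by rule: the largest called changes without overlap (up to 15 in each direction, with a mean of at least 50), up to 6 called and 4 abundant uncalled members per list, the 10 largest differences between the sexes in each direction, and a preset set of microglial, stress, clock and neutrophil genes. The members and lists were chosen with earlier results of these data known. A further set of members was named after their values were seen (Ctss, H2-DMb1, Siglech, Il18, Lyz2, Rpl10a, Slc40a1, Cd33, Dnmt1, Igfbp4, Mt1, Mrpl2, Ccl24 and 4 splicing factors). Gene positions are from GENCODE vM21 on GRCm38, the sequence of mm10, and promoters from RefSeq. Of the 12552 genes, 99.2% had a transcript length and GC content.

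On simulated data with 200 changed genes among the 12552, 55% of 2-fold and 77% of 4-fold changes were recovered, and 5.71% of calls were false. The alternatives were edgeR 4.0.16 and DESeq2 1.42.0 on the recovered reads, TMM and equal-total scaling, other pseudocounts, no filter, a fit to the 8 libraries alone, the replicate block and leaving out libraries. Removal of the length and GC trend, and thinning to the lowest depth, were added after seeing the data.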

Additional observations from a re-analysis of the deposited data

Results flagged for a closer look

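The step from middle-aged to aged differed between males and females for 900 genes, by the test of the male step minus the female step (limma, Benjamini-Hochberg adjusted p under 0.05). A lower male step was called for 6 of 33 cytokine, 6 of 35 NF-kB and 3 of 43 interferon genes, against 3.79% of all genes. A higher one was called for 1 cytokine and 1 NF-kB gene. Some genes of inflammatory signalling thus had a lower step in males: Nfkbiz (-3.49), Tnf (-4.11), Ccl3 (-1.21), Ccl4 (-1.29), Il1a (-0.91), Zfp36 (-1.16), Cflar (-1.12) and Mx2 (-2.28). So did Apoe (-1.42) and Lpl (-1.35), the stress factors Atf4 (-0.83) and Ddit3 (-1.53), and Rpl10 (-2.37). RNA-processing genes did too, with Clk1 (-1.58), Clk4 (-1.49), Srsf5 (-1.31), Srsf7 (-1.09), Ddx17 (-1.35), Neat1 (-3.33), Snhg1 (-3.58) and Snhg17 (-3.05). The translation factors Eif4a2 (-1.34) and Eif5 (-0.84) had a lower male step, in a list where 4 of 39 members had a higher and 3 a lower one. Among chromatin genes these were Dnmt3b (-4.15), Kmt2a (-1.02), Kmt2c (-1.06), Setd2 (-1.27), Tet2 (-1.37), Tet3 (-1.37), Hist1h2ac (-5.32) and Hist1h2bg (-2.32). Other genes with a lower male step were Arhgef4 (-2.80), Igflr1 (-3.15), Igsf9 (-4.83), Kctd9 (-3.26), Lime1 (-3.71), Tmem86b (-5.01), Trip6 (-4.05) and Trpm7 (-1.46).

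A higher male step was called for 13 of 29 homeostatic, 5 of 37 phagocytic and pattern receptor and 2 of 16 complement genes, and a lower one for none. Some homeostatic, receptor and complement genes thus had a higher step in males: Tmem119 (0.78), Slc2a5 (0.90), Sall1 (0.50), Tgfbr1 (0.50), Tgfb1 (0.57), Trem2 (0.49), Itgb5 (0.58), Cd14 (0.59), Tlr3 (0.58), Orai1 (0.68), C1qa (0.53) and C1qc (0.47). So did the presentation genes Tapbp (0.64) and H2-DMa (0.46), the lysosomal Man2b1 (0.42) and Gaa (0.54), and the metabolic genes Pkm (0.42), Hk2 (0.70), Atp5a1 (0.56), Srebf2 (0.90), Cyba (0.54) and Lars2 (2.13). The remaining ones were Bag3 (1.36), Cd151 (1.98), Chn1 (6.65), Cnp (0.61), Glb1l2 (6.95), Noct (2.95) and Tln1 (0.88). The metabolic genes named here do not stand for their lists. A higher male step was called for 5 of 25 glycolysis, 3 of 74 oxidative phosphorylation and 1 of 32 cholesterol synthesis genes. It was called for 3 of 39 oxidative stress and iron genes and 1 of 54 mitochondrial ribosome and tRNA ligase genes. The share over all genes was 3.38%.

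In 10 of the 124 named genes checked, 1 of the 5 middle-aged males lay far from the other libraries of its group by Dixon's test, which chance does in about 1 of 20 groups. Middle-aged male 3 was low for Ciita (0.799 normalized counts), H2-K2 (59.9), Lime1 (146), Snhg17 (91.9) and Trip6 (20.8). Middle-aged male 2 was low for Arhgef4 (168) and had the only S100a9 read of its group (0.610). Middle-aged male 1 was high for Glb1l2 (8.70), and middle-aged male 5 was high for Gpnmb (51.0) and low for Tet2 (874).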

How the results depend on the processing

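Of 103 named genes called in males, 45 kept direction and call under all 20 alternatives and 58 lost the call under at least 1. None reversed. With libraries rescaled to the same total the male step had 440 genes higher and 1801 lower, and the difference between the sexes 161 and 748. With only the 8 male libraries fitted, 1137 genes were called (544 higher, 593 lower). Without aged males 1 and 4 together, 372 were called (133 and 239) and the difference had 288 (110 and 178). With the length and GC trend removed 587 genes were lower and the difference had 288 lower. Leaving out 1 library gave 1358 to 1925 genes in males (651 to 976 higher, 654 to 949 lower) and 626 to 959 for the difference (281 to 480 higher, 345 to 487 lower). With the replicate number as a block 1662 genes were called in males, and the difference had 579 (259 higher). Same-numbered aged and middle-aged males correlated at 0.083, -0.023 and 0.069, and differently numbered ones at -0.076 to 0.085. These few values cannot decide whether the numbers pair the libraries.

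The cause of these shifts was not tested. Signs turned only for named genes that were not called: Hspa8 (-0.021 with equal totals, and -0.016 to 0.20 over the libraries left out), Sall1 (-0.027 with equal totals), Il1b (0.027 with the block, and -0.24 to 0.058 over the libraries left out), Per2 (-0.0095 to 0.52), P2ry12 (-0.095 to 0.033, 0.063 without aged males 1 and 4 and 0.28 with the trend removed) and Hsp90ab1 (-0.10 to 0.022, and 0.029 without aged males 1 and 4). The median over all genes was -0.16 with equal totals and 0.06 with the trend removed, against -0.02. List medians that turned sign with equal totals were those of TGF-beta, clock, mitochondrial ribosome, MAPK, heat shock, proteasome and immediate early genes and endothelial markers. The shallowest aged male had 17919286 reads. Genes below 100 normalized counts gave 186 of the 1937 calls.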
